A study of Mus musculus with 5 samples.

Results

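The genes described here are the WAP four-disulfide core (Wfdc), beta-defensin (Defb) and Kazal-type Spink genes, chosen by name: every entry of the deposited expression table that begins with Wfdc, Defb or Spink followed by a digit. The rule takes 72 of the 23997 names in the table, of which 17 are Wfdc, 43 are Defb and 12 are Spink genes. The set was proposed after the value of Wfdc9 in these libraries was known, so what follows on the difference between the groups is a description of the members.

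The study compared full cerebral cortices of C57BL/6 mouse embryos at embryonic day 16 (E16) by RNA sequencing. The conditional knockout (cKO, genotype Uhrf1 -/-) is represented by 2 libraries, MG18 and MG19, and the control (genotype Uhrf1 +/-) by 3 libraries, MG15, MG16 and MG17. Both groups carry Emx1-Cre, which deletes the floxed exon 4 of Uhrf1 in the dorsal telencephalon, so the controls also lack 1 intact allele in that lineage. A full cortex also holds cells that Emx1-Cre does not recombine, such as microglia, vessel cells and neurons born in the ventral telencephalon.

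Wfdc proteins carry a small fold held together by disulfide bonds between cysteines, and many inhibit proteases or act against microbes. Beta-defensins are short, cysteine-rich peptides of epithelia, and many of the mouse genes are used mainly in the epididymis, where the products coat sperm. Spink proteins carry Kazal domains that inhibit serine proteases in pancreas, skin and the male reproductive tract. The brain is not a known main site of these families. Uhrf1 binds hemimethylated DNA and brings the methyltransferase Dnmt1 to it, so that methylation is copied to the new strand after replication.

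Wfdc9 was the member with the highest level in the cKO cortices, and its coding sequence is shown to mark the cysteines it encodes. Their number alone does not place a gene in the family, and their spacing was not examined. The gene lies on the minus strand of chromosome 2 from 164649625 to 164657343 (GRCm38). Its longest annotated transcript has 5 exons and 547 bases, and the coding part holds 83 codons before the stop. Capitals mark the 8 in-frame cysteine codons (GENCODE M21).
Wfdc9 coding sequence: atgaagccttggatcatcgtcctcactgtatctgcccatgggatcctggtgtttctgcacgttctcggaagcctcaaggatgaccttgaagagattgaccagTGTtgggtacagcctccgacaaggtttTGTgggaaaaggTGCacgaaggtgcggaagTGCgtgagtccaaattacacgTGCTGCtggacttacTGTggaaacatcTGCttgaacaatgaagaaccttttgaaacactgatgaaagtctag
Among the 17 Wfdc genes the coding parts had 74 to 426 codons (median 111) and 8 to 39 cysteine codons (median 10), so Wfdc9 is a short member whose cysteine number is the lowest found in the family. The 42 Defb genes with a coding part had 57 to 186 codons (median 72) and 5 to 9 cysteine codons (median 6). The 12 Spink genes had 80 to 1017 codons (median 101) and 6 to 61 cysteine codons (median 7).

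The promoters of Wfdc9, of Wfdc10, which overlaps it on the other strand, and of Wfdc2, the member that stood lower in cKO, are shown because Uhrf1 acts on methylation at CG dinucleotides. Each window is the 250 bases before a RefSeq start site of GRCm38.p6, and capitals mark each CG.
Wfdc9 promoter, chr2:164654967-164655216, minus strand: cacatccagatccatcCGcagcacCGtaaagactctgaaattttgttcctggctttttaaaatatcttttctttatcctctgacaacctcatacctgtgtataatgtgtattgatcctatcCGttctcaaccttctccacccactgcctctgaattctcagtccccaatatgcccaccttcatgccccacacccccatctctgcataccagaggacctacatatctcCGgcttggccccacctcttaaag
Wfdc10 promoter, chr2:164655796-164656045, plus strand: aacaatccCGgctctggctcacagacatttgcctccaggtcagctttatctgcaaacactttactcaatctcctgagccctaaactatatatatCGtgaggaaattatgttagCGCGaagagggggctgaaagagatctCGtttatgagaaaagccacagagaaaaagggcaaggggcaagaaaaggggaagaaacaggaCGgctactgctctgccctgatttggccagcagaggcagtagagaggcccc
Wfdc2 promoter, chr2:164562465-164562714, plus strand: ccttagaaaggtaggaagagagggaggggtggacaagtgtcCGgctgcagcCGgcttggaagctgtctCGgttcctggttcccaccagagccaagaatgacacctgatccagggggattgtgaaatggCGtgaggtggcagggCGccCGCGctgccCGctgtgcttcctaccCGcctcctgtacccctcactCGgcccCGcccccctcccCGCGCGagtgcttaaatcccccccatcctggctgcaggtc
The Wfdc9 window holds 4 CG, a number that 61.9% of all 27025 promoters reach or exceed. It lies within an intron of that longest transcript, since the RefSeq start site used falls at its next exon. Wfdc10 holds 6 CG, reached by 50.5% of all promoters, and Wfdc2 holds 14 CG, reached by 29.6%.

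For each gene only the first window listed was counted. Over the 44 members with a promoter in the RefSeq table the median was 2 CG per 250 bases (range 0 to 14), against 6 over all promoters (highest 56). No CG was found in 22.7% of the members' windows, against 8.26% of all windows. The 14 Wfdc promoters had a median of 4.5 CG, the 29 Defb promoters a median of 1 with at most 5, and the 1 Spink promoter had 8. Among these first windows that of Wfdc2 was the 1 with 10 or more CG, a number that 38.2% of all promoters reach. Of the further windows, not counted here, 1 of Spink2 held 11 CG and 1 of Defb21 held 8. A CG is palindromic, so each reads the same on both strands, and these are counts of letters in a window and not measurements of methylation.

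**Figure D1:**
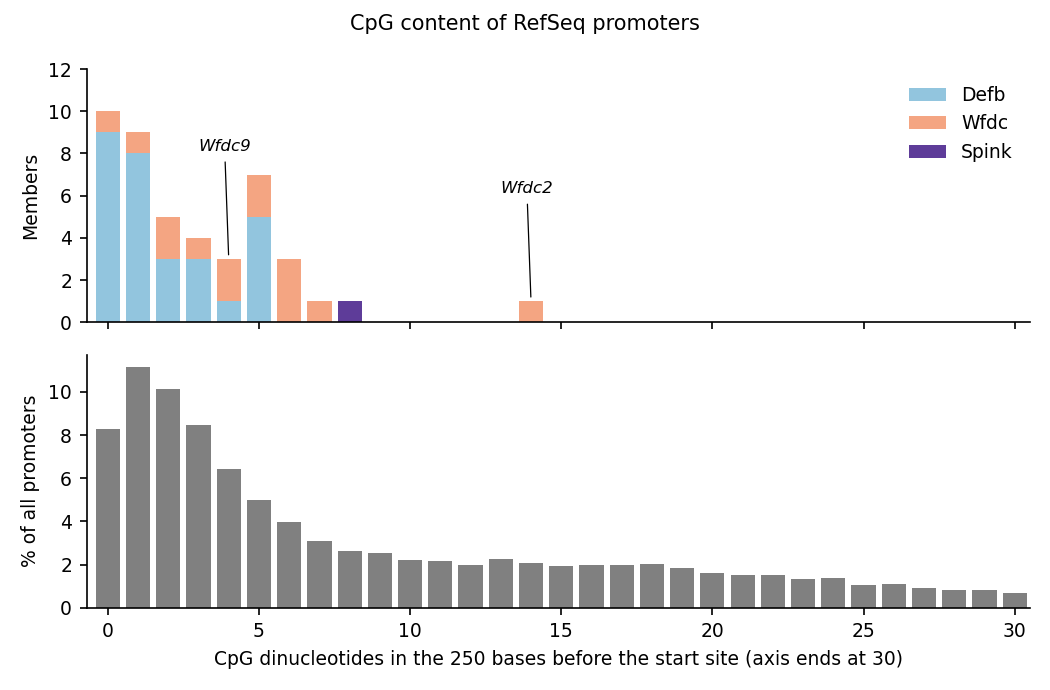
Number of CG dinucleotides in the 250 bases before the start site (horizontal axis, ending at 30), with the number of members per family in the upper panel and the percent of all 27025 promoters in the lower one. The 44 members lie towards low numbers with a median of 2, against 6 for all promoters, and Wfdc9 has 4. Each gene is counted by its first window listed.

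Most members were silent in both groups. Of the 72 genes, 64 were listed at 0 FPKM (fragments scaled to transcript length and to the size of the library) in all 5 libraries, namely 13 Wfdc, 42 Defb and 9 Spink genes. These include Defb1, a constitutive epithelial defensin, Defb4 and Defb14, which epithelia induce upon infection, Spink5, the inhibitor that guards the skin barrier, and Wfdc17, which is used by macrophages. In cKO 67 of the members were listed at 0 in both libraries, and in control 66 were listed at 0 in all 3. Wfdc1 was the 1 member above 0 in all 5 libraries.

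The libraries differ in depth. From the steps between low FPKM values, cKO MG18 and MG19 held roughly 8500000 and 10300000 fragments, and control MG15, MG16 and MG17 roughly 44200000, 16500000 and 10700000 fragments. Over the members, 1 fragment was worth a median of about 0.252 and 0.208 FPKM in cKO MG18 and MG19, against 0.0484, 0.130 and 0.200 FPKM in control MG15, MG16 and MG17. A listed 0 therefore allows a higher level in the cKO libraries than in control MG15 or MG16, and can also be a failed estimate. These conversions use the full length of each transcript, whereas the depth estimate used a shortened length. For transcripts this short, 1 fragment is then worth more FPKM than stated, and the fragment numbers given for members lie too high.

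Uhrf1, the deleted gene, checks the labels. It stood at 2.75 and 2.61 FPKM in cKO, against 7.24, 13.2 and 13.0 FPKM in control (log2 difference -1.97, SE 0.28, adjusted p = 0.00762, limma over all genes tested). Leaving out MG18 gave an adjusted p of 0.255, and leaving out MG19 gave 0.261, so this call needs both cKO libraries. In these bulk samples fewer cells of a type and less RNA per cell cannot be told apart.

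Wfdc9 was present in cKO and listed at 0 in every control library. It stood at 5.99 FPKM in MG18 and 11.7 FPKM in MG19, against 0, 0 and 0 FPKM in control MG15, MG16 and MG17. The cKO libraries both lay above every control library and differed from each other by nearly the size of the lower one. Over the full transcript length these levels correspond to roughly 27.9 fragments in MG18 and 65.8 fragments in MG19, numbers that lie too high. In the controls 1 fragment of Wfdc9 would be worth at least about 0.0414 FPKM in MG15, 0.111 in MG16 and 0.171 in MG17, so all 3 would have shown a gene at the cKO levels. No fold is given against controls that are all listed at 0.

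Few genes that were silent in all controls reached such a level in cKO. Leaving out names of small RNAs, 6019 genes were listed at 0 in all 3 controls, and 148 of them, or 2.46%, were above 0 in both cKO libraries. Of the 66 members at 0 in all controls, 1 was above 0 in both, which is Wfdc9, and this share of 1.52% lies near that of all genes. Ordered by the cKO mean, Wfdc9 was number 3 of the 148, behind Sectm1a and Rpl34-ps1, while the median of the 148 was 0.182 FPKM. Defb41, a defensin of the epididymis, was the 1 member above 0 in a single cKO library and at 0 in all controls. It stood at 0 FPKM in MG18 and 0.336 FPKM in MG19, against 0 in all 3 controls, where 7.04% of all genes silent in the controls were above 0 in 1 cKO library.

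**Figure D2:**
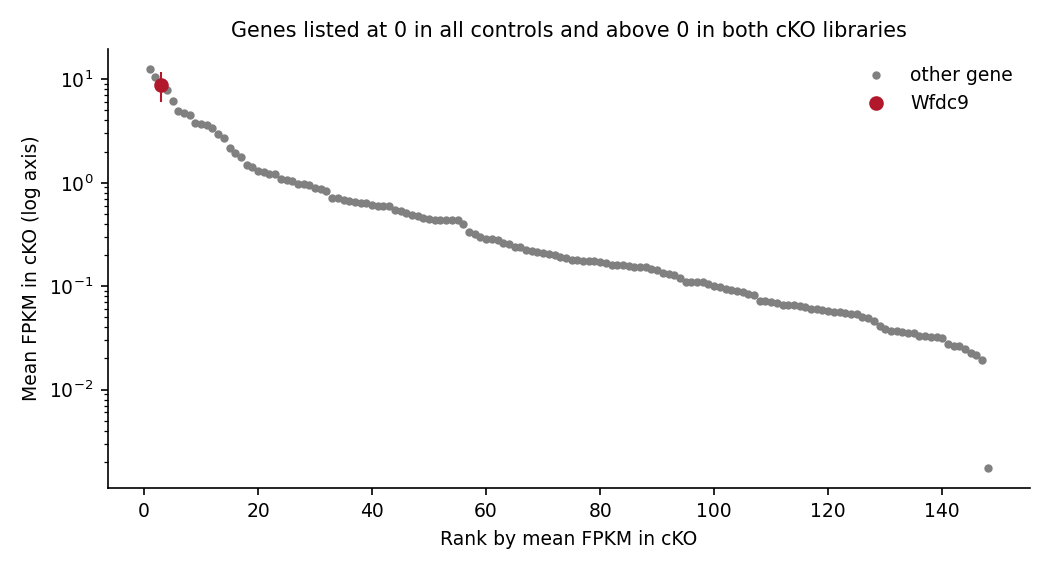
Mean FPKM in cKO (log axis) of the genes listed at 0 in all 3 control libraries and above 0 in both cKO libraries, ordered by that mean. Each point is a gene and the vertical line of Wfdc9 spans its 2 cKO libraries, 5.99 and 11.7 FPKM, which place it at number 3 of 148.

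Wfdc2, a secreted protein of epididymal and airway epithelium, showed the opposite pattern. It was listed at 0 and 0 FPKM in cKO MG18 and MG19, against 0.485, 0.354 and 0.949 FPKM in control MG15, MG16 and MG17. The groups did not overlap. Over the full transcript length the control values correspond to roughly 18.2, 4.97 and 8.62 fragments, numbers that lie too high. By the same conversion, at the control mean of 0.596 FPKM at most about 4.3 fragments would be due in MG18 and 5.21 in MG19. A difference this low in fragments rests on few reads in the shallower cKO libraries, and no fold is given. Its adjusted call was lost when any single library was left out.

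Wfdc1, a secreted Wfdc protein first described in prostate stroma, was above 0 in every library. It stood at 0.888 and 0.285 FPKM in cKO, against 0.553, 0.994 and 1.29 FPKM in control. MG19 lay under all controls while MG18 lay among them, so the groups overlapped (log2 difference of log2(FPKM + 0.1) -0.69, SE 0.49).

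Spink10 and Spink13 lie in 1 cluster on chromosome 18 with overlapping spans, so their reads may not be fully separated. Spink10 stood at 0.655 and 0 FPKM in cKO, against 1.08, 0.395 and 0.663 FPKM in control (log2 difference -1.48, SE 0.76). Spink13, which in the rat is an epididymal inhibitor that binds sperm, stood at 0 and 0.692 FPKM in cKO, against 0.116, 0 and 0.163 FPKM in control (log2 difference 0.66, SE 0.85). The higher cKO mean of Spink13 rests on MG19, since MG18 is at 0. In both genes a library at 0 and a library well above it stand within cKO, and the groups overlap. Spink2, an inhibitor made in developing sperm, was at 0 in both cKO libraries, against 0, 0.164 and 0 FPKM in control. Wfdc3 was at 0 in both cKO libraries, against 0.170, 0 and 0 FPKM in control.

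**Figure D3:**
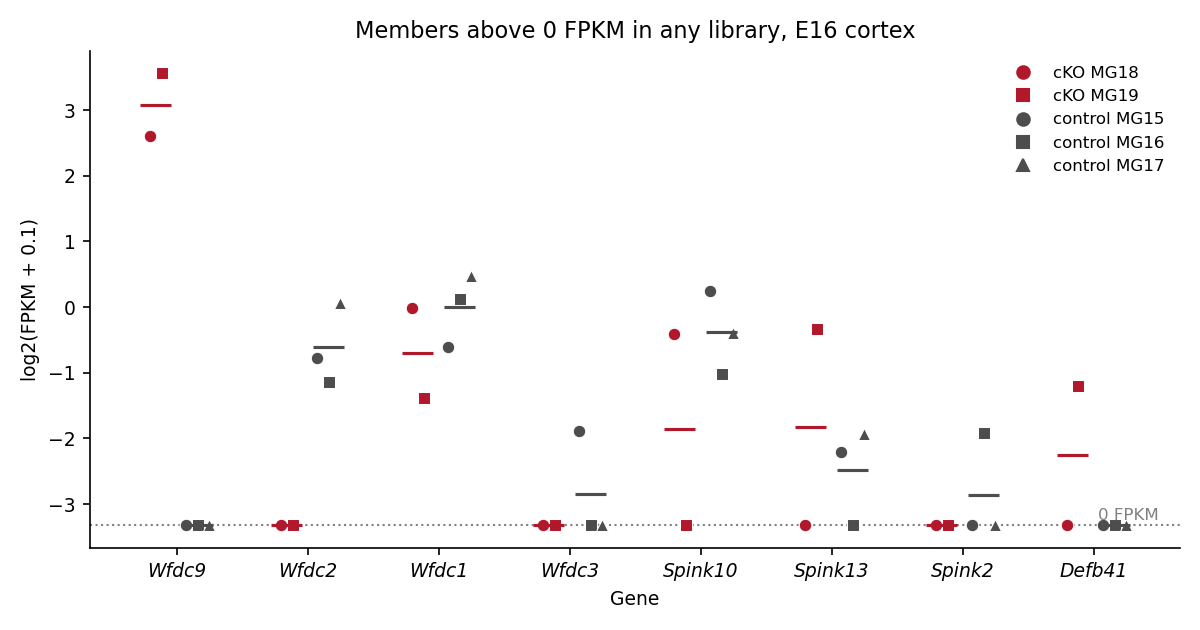
Level of the 8 members above 0 in any library on the log2(FPKM + 0.1) scale, where each symbol is a library, horizontal bars are group means of that scale, and the dotted line is 0 FPKM. Wfdc9 lies at 5.99 and 11.7 FPKM in cKO and on the dotted line in the 3 controls, while no other member exceeds 1.29 FPKM.

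Few members could enter the comparison across all genes. Averaged over the libraries, 0.1 FPKM or more was reached by 5 members, against 14692 genes in all. Past an unadjusted p under 0.05 and over 2-fold, 1 member, Wfdc9, was higher in cKO, where 2.87% of all genes tested were. By the same thresholds 1 member, Wfdc2, was lower, where 1.17% of all genes tested were. At an adjusted p under 0.05 both passed, where 1.25% of all genes did. Wfdc9 and Wfdc2 were the 2 of the 5 whose groups stood apart without overlap, as those of 30.8% of all genes tested did. Since the members were proposed with this contrast known, nothing is read from these counts.

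The members lie in gene clusters, and the genes among them that were not chosen by name are given beside them. Members less than 500 kb from the next form 8 clusters of at least 3, with 65 members, of which 6 were above 0 in any library. Between the outermost members lie 27 other genes of the table, and 20 of them were listed at 0 in all 5 libraries. Of the 6 tested, 0 passed an unadjusted p under 0.05 with over 2-fold in limma, and 0 passed at an adjusted p. Sdc4 was the 1 at an unadjusted p under 0.05 alone, a threshold for which the share of all genes was not counted. It stood at 2.64 and 1.99 FPKM in cKO, against 1.42, 0.942 and 1.06 FPKM in control (log2 difference 0.97, SE 0.30, adjusted p = 0.246). Sdc4 is a cell surface proteoglycan. With over 2-fold it also passed without MG15 and without MG19, and Svs5 joined it without MG19.

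The cluster around Wfdc9 spans chromosome 2 from 164176325 to 164745994, a stretch of 569.67 kb with 14 Wfdc genes. Of these 14, Wfdc9, Wfdc2 and Wfdc3 were above 0 in any library. The cluster also holds genes of seminal vesicle secretion (Svs2 to Svs6), the epididymal protease inhibitor Eppin and the antiprotease Slpi. Of its 18 other genes, 11 were at 0 in all 5 libraries. Svs5 stood at 0.846 and 0 FPKM in cKO, against 0, 0 and 0 in control, and Slpi at 0 and 0 in cKO, against 0, 0 and 0.140 FPKM in control. At its own thresholds and a later, postnatal stage, the paper lists Wfdc9, Wfdc12 and Svs5 of this cluster among the genes higher in cKO.

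The nearest genes of Wfdc9 did not share its pattern in these E16 libraries. Wfdc10 overlaps its span on the opposite strand, Wfdc11 lies 5.55 kb and Wfdc16 10.8 kb away, and all 3 were at 0 in all 5 libraries. Of the 5 exons of the longest Wfdc9 transcript, 1 lies within the span of Wfdc10, and in GENCODE M21 the exons of this transcript share 0 bases with those of Wfdc10. The RefSeq span of Wfdc9, however, ends at 164657343, inside the Wfdc10 exon that starts at 164657063, so the genes may share exonic bases on opposite strands there. With the strand setting of the counting not given, reads from such bases cannot be told apart. Wfdc9 shares no stretch of 100 bases with any other gene transcript, whereas Wfdc6a and Wfdc6b share 36.7% and 31.9% of theirs with each other and Defb11 and Defb2 share 1.38% and 1.46%. The closest gene at a substantial level was Dnttip1, 88.7 kb away, with mean levels of 12.4 FPKM in cKO and 14.8 FPKM in control.

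**Figure D4:**
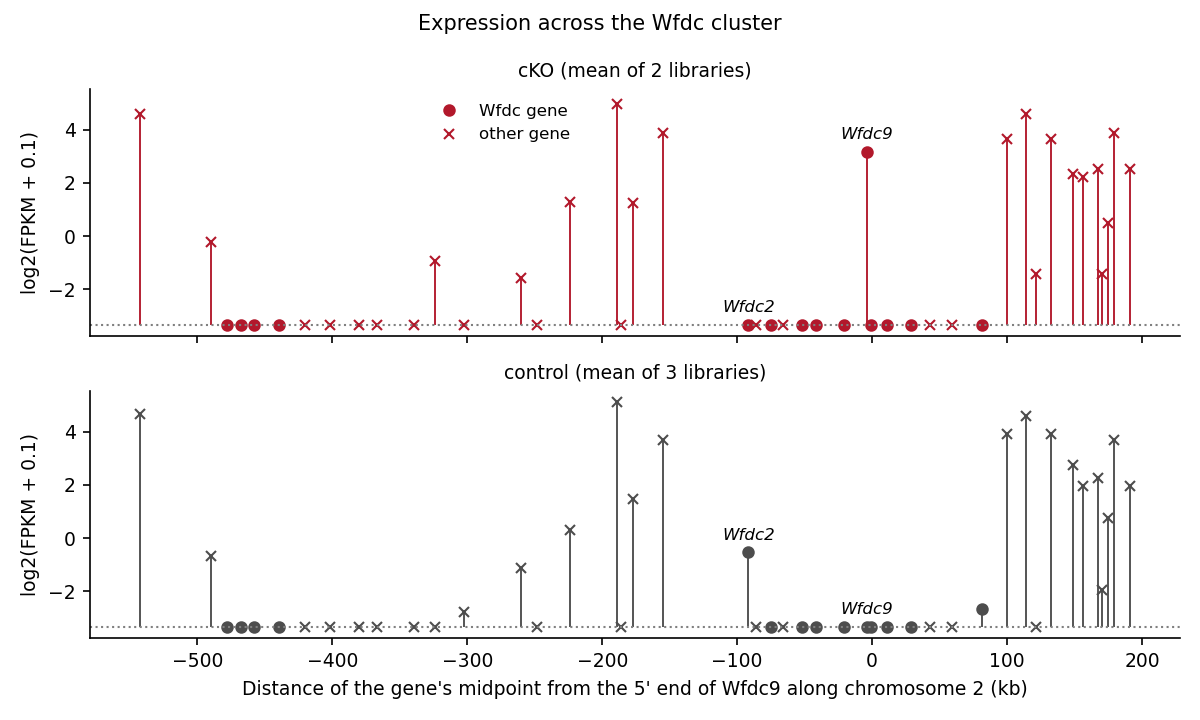
Group mean level on the log2(FPKM + 0.1) scale of the genes of the Wfdc cluster and its flanks, for cKO (upper panel) and control (lower panel). The horizontal axis gives the distance in kb of each gene's midpoint from 164657343, the 5' end of the RefSeq span of Wfdc9. The start site of the printed Wfdc9 promoter is another position. Circles are Wfdc genes, crosses other genes and the dotted line is 0 FPKM, on which Wfdc9 lies in control and its nearest neighbours lie in both groups.

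Other genes that mark the epididymis were nearly absent as well. Of 29 such genes outside the 3 families, 27 were listed at 0 in all 5 libraries. Ces5a, a secreted carboxylesterase, was the 1 tested and did not pass, at 0.366 and 0 FPKM in cKO, against 0.193, 0.0743 and 0.0576 FPKM in control. The Lcn, Cst, Crisp and Rnase genes of the list, which encode secreted proteins of the epididymis, were all listed at 0 in the cKO libraries that held Wfdc9.

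The libraries differ in Ddx3y, a gene of the Y chromosome, and in Xist, which is transcribed from the inactive X chromosome. Wfdc9 was at 5.99 FPKM in MG18, where Ddx3y was at 13.3 FPKM, and at 11.7 FPKM in MG19, where Ddx3y was at 0 and Xist at 96.3 FPKM. The controls, with Ddx3y at 19.4, 0.0141 and 21.8 FPKM, all had Wfdc9 at 0.

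Markers of other cell types were summed in each library, and their part in the level of Wfdc9 was not tested. Of 10 surface epithelium markers, 2 were tested and 1 was higher, Grhl2, a transcription factor of epithelia. It stood at 1.56 and 1.95 FPKM in cKO, against 0.0101, 0.0125 and 0 FPKM in control (log2 difference 4.11, SE 0.42, adjusted p = 0.00102, limma). The summed level of the list was 2.05 and 2.47 FPKM in cKO, against 0.186, 0.194 and 0.534 FPKM in control, and Grhl2 made up most of it in cKO. The other 9 markers summed to 0.484 and 0.520 FPKM in cKO, against 0.176, 0.181 and 0.534 FPKM in control, where the groups overlap. Cldn4 and Cldn7 were at 0 in all 5 libraries, while Cdh1 and Krt14, both too low to be tested, stood at 0.0270 and 0.0658 and at 0.0916 and 0.0661 FPKM in cKO, against 0.00571, 0 and 0 and against 0, 0 and 0.0601 FPKM in control. Epcam, the defining epithelial adhesion molecule, stood at 0.366 and 0.180 FPKM in cKO, against 0.106, 0.149 and 0.426 FPKM in control, where the groups overlap.

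The 12 markers of microglia and macrophages summed to 64.7 and 58.5 FPKM in cKO, against 41.6, 31.0 and 60.4 FPKM in control, and 0 of the 12 passed in limma with over 2-fold, while 3 were at an unadjusted p under 0.05 (median log2 difference 0.49, against -0.02 over all genes tested). Of 18 other antimicrobial genes, 9 were at 0 in all libraries and 4 were tested. Their sum was 18.9 and 20.2 FPKM in cKO, against 8.57, 6.16 and 20.8 FPKM in control. S100a8 and Lyz2, of granulocytes and macrophages, were higher in cKO past an unadjusted p under 0.05 with over 2-fold, at adjusted p of 0.115 and 0.417 in limma. The groups of Lyz2 overlap, at 4.86 and 11.2 FPKM in cKO, against 1.70, 1.92 and 7.13 FPKM in control. The others tested, S100a9 and Pglyrp1, had log2 differences of 0.12 and 0.08 with overlapping groups. The 12 cortical markers summed to 983 and 1052 FPKM in cKO, against 1191, 1242 and 1477 FPKM in control, with Neurod6, of cortical neurons, the largest part of each sum. Of the 12, 0 passed in limma with over 2-fold and 0 at an adjusted p, while 4 were at an unadjusted p under 0.05 and all 4 were lower in cKO. These were Emx1, Eomes, Pax6 and Neurog2, which are expressed in cortical progenitors, with log2 differences of -0.58, -0.79, -0.68 and -0.69 (adjusted p of 0.234, 0.117, 0.229 and 0.290). Emx2, also of progenitors, overlapped between the groups (-0.17). Tbr1 (0.32, without overlap) and Bcl11b (0.31, overlapping) were the markers with a positive difference. The share of all genes at an unadjusted p under 0.05 alone was not counted, so these numbers of markers have no background beside them. At its own thresholds the paper found no such fate determinants deregulated, and it reports unchanged numbers of Pax6-positive cells in the embryonic cortex. The markers of the labelled tissue were present in every library.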

How the data were processed

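RNA of full E16 cortices was sequenced in 2 cKO and 3 control libraries. The authors aligned read pairs to mm10 with TopHat2, obtained FPKM by gene through Cuffdiff and deposited 1 table of these FPKM values, with 23997 names and no counts. For both tools the version, and for the counting the strand setting, is not given in the sources used here. Transcript lengths came from GENCODE M21. RefSeq annotation of GRCm38.p6 gave positions, with 22500 names matched by symbol, 1340 by synonym and 157 not matched. Of the 72 members 71 matched by symbol and 1 by synonym.

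The deposited FPKM were put on the log2(FPKM + 0.1) scale and compared between cKO and control in limma 3.58.1, using lmFit and eBayes, a mean trend and no covariate (6.30 prior degrees of freedom). Genes averaging 0.1 FPKM or more were tested, 14692 in all, and p-values were adjusted over all of them after Benjamini and Hochberg. Names of small RNAs (1245, of which 63 reached that level) were left out. The p-values set each group difference against the spread between these libraries. In this fit the variance of each gene was drawn towards that of genes with similar means. Depth was estimated from steps between low FPKM values, as the value that best brought them to whole fragments. By that choice 65.6% (MG15) to 84.4% (MG16) came within 0.25 of whole fragments. Values placed at random would also do so in part, so the depth is rough and no counting interval is given. Transcript lengths were shortened for this estimate but not for the fragment numbers of members. The fit was checked on simulated data.

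Members named by rule are those averaging 0.5 FPKM or more in a group, those passing the 2-fold and unadjusted p threshold of 0.05, and Wfdc9. Other members above 0, the silent members, Svs5, Slpi, Dnttip1, Ddx3y, Xist and the markers given beyond 2 per list were named after their values were seen. The members, the 7 lists of other genes and the 12 alternatives (pseudocount, filter, normalization, trend, small RNA names, libraries left out) were chosen with earlier results of these data known. R 4.3.3 and Python 3.11.15 were used.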

Additional observations from a re-analysis of the deposited data

How the results depend on the processing

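The log2 difference of Wfdc9 stayed above 0 under each of the 12 alternatives run. With its controls all listed at 0 and the gene known beforehand, this was fixed in advance, so nothing is read from it. Spink10, Wfdc1, Wfdc2 and Wfdc9 kept their sign wherever they could be fitted, while Spink13, at 0 in MG18, was not fitted without MG19. Without MG19 the log2 differences of Spink10 and Wfdc1 shrank to -0.0181 and -0.0128, so both rest on that library. The log2 difference of Wfdc9, which depends on the pseudocount since its controls are listed at 0, lay between 3.24 at a pseudocount of 1 and 9.71 at 0.01. The count of members that were higher, 1, lay between 1 and 2 when a library was left out, the second being Spink13 without MG18. The count that were lower, 1, was 0 at a pseudocount of 1, 0 at a minimum mean of 1 FPKM, where Wfdc2 is not tested, and 2 after quantile normalization, which adds Spink10. It lay between 1 and 3 when a library was left out, with 3 (Spink10, Wfdc1 and Wfdc2) without MG18. The count at an adjusted p, 2, was 1 at a pseudocount of 1, 1 at a minimum mean of 1 FPKM and 1 without any single library, Wfdc2 being the member lost, whose adjusted p in limma ranged from 0.0208 to 0.263 over its alternatives. The count of other genes of the clusters that passed, 0, was 1 at a pseudocount of 0.01, which is Sdc4, and lay between 0 and 2 when a library was left out, with Sdc4 without MG15 and with Sdc4 and Svs5 without MG19. Except where fewer genes are tested, the cause was not tested. With 1 cKO library left, that library is assumed to vary like the controls. No paired analysis was possible because the labels give the groups no shared replicate numbers. The cKO libraries were among the shallowest, so the low members rest on few fragments.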

Other observations

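The choroid plexus and ventral telencephalon, tissues that border the dissected cortex, were followed through 7 and 10 markers. Of the choroid plexus markers 2 were tested, and 1, the transthyretin gene Ttr, was lower past an unadjusted p under 0.05 and over 2-fold, at 0 and 0.389 FPKM in cKO, against 0.484, 0.800 and 0.382 FPKM in control (log2 difference -1.52, SE 0.65, adjusted p = 0.417, limma). Of the 9 ventral markers tested, 2 were higher by the same thresholds, Gsx2 and Isl1, at adjusted p of 0.389 and 0.394 in limma. Isl1 stood at 0.0995 FPKM in MG18 and 1.23 FPKM in MG19, against 0.0516, 0 and 0.0798 FPKM in control. Its higher cKO mean thus rests on MG19, with MG18 near the controls. At an unadjusted p under 0.05 alone there were 6, all higher in cKO, and 0 passed at an adjusted p. Besides Gsx2 and Isl1 these were Dlx1, Dlx2, Gad1 and Gad2 of inhibitory neurons and their progenitors. The share of all genes at that p alone was not counted, so the 6 have no background beside them. The median log2 difference of the 9 was 0.63, against -0.02 over all genes tested. The 10 markers summed to 93.9 and 75.0 FPKM in cKO, against 62.0, 61.5 and 56.8 FPKM in control. The groups of this sum did not overlap, as those of 30.8% of single genes tested did not either. The part of ventral cells in the level of Wfdc9 was not tested.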
